A study of Mus musculus with 15 samples.

Results

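Genes of the 2-cell-like programme outside the Zscan4 family were described here by 7 members, Tcstv1, Tcstv3, Zfp352, Tmem92, Arg2, Gm2016 and Gm5662. The 7 genes were found by their symbols among the 21662 genes of the count data, and they were chosen from earlier results of these data. The values that follow therefore describe them, and their p-values are not independent support for a change. The question addressed was how the genes behave over the 6 groups of samples, and whether they follow the summed level of the 6 Zscan4 genes from sample to sample.

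Cultures of mouse embryonic stem cells (ESC) contain at any moment a small share of cells that pass through a state resembling the embryo at the 2-cell stage, when the embryonic genome is first transcribed. Such cells transcribe Zscan4 genes, which encode DNA-binding proteins linked to telomere maintenance, together with other gene families of the 2-cell stage. Tcstv1 and Tcstv3 belong to the 2-cell stage variable group of genes and are transcribed in the same cells as Zscan4. Zfp352 encodes a zinc finger protein of the early embryo. Tmem92 is named for a transmembrane protein, and the reference annotation lists it under the name Tmem92-ps. Arg2 encodes the mitochondrial arginase, which splits arginine into ornithine and urea. Gm2016 and Gm5662 are predicted genes related in sequence to Eif1a, a translation initiation factor.

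The samples came from 2 RNA-seq experiments on ESC of mixed 129Sv-C57Bl/6 background that express the biotin ligase BirA, grown with serum and LIF. The KO experiment held 9 samples. They were 3 of the parental wild-type line (WT), 2 of an Hmga1 KO clone made by Cas9 frameshift, and 2 each of KO cells carrying a biotin-tagged Hmga1 or Hmga2 cDNA under the CAG promoter at 1 genomic site, called the Hmga1 and Hmga2 add-backs. The full-deletion experiment held 3 samples of WT and 3 of a clone lacking the coding sequence of Hmga1. Each mutant line was 1 clone, so that clone and genotype cannot be told apart, and both add-backs carry the KO of the clone they were made from. Samples were independent cultures harvested on different days, and the letters a, b and c of the KO experiment stand for batches of library preparation and sequencing. The 3 comparisons within the KO experiment use the same KO samples.

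Reads per sample that fell on genes numbered 13465399 to 34952136 in the KO experiment, with more in batch a than in batch b, and 14832310 to 21708492 for the 6 samples with or without the full deletion. Levels are given as CPM, counts per 1000000 of the TMM-normalised total, and as RPKM, which also divides by exonic length. The 2 experiments were normalised separately, so levels set across them are side by side and not tested. Hmga1 lay between 221 and 464 CPM in WT and at 217 and 96.1 CPM in KO a and b, whose frameshift does not remove the transcript that was counted. In the full-deletion experiment it lay between 310.4 and 356.6 CPM in WT and between 10.9 and 12.3 CPM in the deletion line. Hmga2 stood at 249 and 222 CPM in its add-back. WT b of the full-deletion experiment stood apart, with a normalisation factor of 0.752 against 0.986 to 1.12 in the other 5 samples. The ESC markers Pou5f1, Sox2 and Nanog had at least 675 counts in each of the 15 samples.

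Gm2016 and Gm5662 are near-identical copies, and their sequences are shown because reads cannot always be told apart between them. Gm2016 lies on chr12:89112520-89116383 on the plus strand and Gm5662 on chr12:89509084-89512944 on the minus strand (NCBIM37, the assembly also called mm9), 392.7 kb apart. Their transcripts are identical at 1827 of 1842 aligned positions (99.2%), and their coding sequences differ at 4 of 435 bases. Both coding sequences are less similar to Eif1a, with an identity of 94.5% for Gm2016 and 94.0% for Gm5662. The first stretch of 47 coding bases, the length of an aligned read, is the same in both genes, and a second stretch (bases 230 to 276 of the coding sequence) holds 2 differences, in capitals.
Gm2016 and Gm5662, bases 1 to 47: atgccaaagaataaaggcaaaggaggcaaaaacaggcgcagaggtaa
Gm2016, bases 230 to 276: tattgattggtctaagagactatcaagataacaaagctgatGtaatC
Gm5662, bases 230 to 276: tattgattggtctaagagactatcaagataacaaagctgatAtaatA
Of the windows of 47 bases in Gm2016, 74.6% also occur in Gm5662, and 18.9% occur at 1 place in the genome only. For Gm5662 the latter share was 17.6%. The authors placed a read with several equally good alignments at 1 of them at random, so part of the counts of each gene can stem from the other, and the sum of both is given as well.

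The 250 bases upstream of the 2 transcript starts are also nearly the same, at 247 of 250 positions (98.8%), with the differing bases in capitals.
Gm2016, chr12:89112270-89112519, plus strand: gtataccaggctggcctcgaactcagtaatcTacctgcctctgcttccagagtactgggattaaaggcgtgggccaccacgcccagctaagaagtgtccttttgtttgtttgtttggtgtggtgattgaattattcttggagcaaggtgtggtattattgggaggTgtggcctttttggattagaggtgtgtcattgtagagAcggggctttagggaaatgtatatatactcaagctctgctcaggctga
Gm5662, chr12:89512945-89513194, minus strand: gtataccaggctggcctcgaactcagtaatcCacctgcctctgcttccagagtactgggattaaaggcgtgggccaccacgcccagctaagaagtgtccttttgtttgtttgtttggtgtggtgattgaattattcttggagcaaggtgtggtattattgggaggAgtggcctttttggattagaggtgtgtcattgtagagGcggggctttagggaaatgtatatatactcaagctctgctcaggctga
The other members with a position were Zfp352 (chr4:89885511-89892393, plus strand), Tmem92 (chr11:94638531-94644017, minus strand) and Arg2 (chr12:80231764-80257288, plus strand). Tmem92 was matched to Tmem92-ps by name, whose annotated transcript has 2043 bases where the counts used 2559 exonic bases. All windows of Arg2 occur at 1 place in the genome, as do 89.5% of those of Zfp352 and 74.3% of those of Tmem92. Tcstv1 and Tcstv3 were not matched by name. Promoters of 300 bases, from 250 before to 50 after the start, were searched on both strands for GATTCAAT (0.519% of 22352 promoters), TGCACAC (4.18%) and TATAAA (13.4%), letters of the binding sites known for Dux and Zscan4 and of the TATA box. None of the 5 matched members held an exact match to any of the 3 in this window. Variants of these sites were not searched, so related sequences in these promoters are not covered. GATTCAAT was found in Zscan4c and Zscan4f, and TATAAA in the 5 matched Zscan4 genes, Zscan4b to Zscan4f.

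Tcstv3 was near the limit of detection in WT and higher in each line derived from the KO. It had 0.0949, 0.0776 and 0.0415 CPM in WT a, b and c, which rest on 3, 1 and 1 counts. In KO a and b it had 2.27 and 0.836 CPM (81 and 11 counts), with Hmga1 added back 1.18 and 1.35 CPM, and with Hmga2 added back 0.474 and 0.634 CPM. All 6 samples of KO-derived lines thus lay above the 3 of WT, and KO overlapped with the Hmga1 add-back. In the full-deletion experiment Tcstv3 stood at 0.617, 0.858 and 0.434 CPM in WT and at 0.363, 0.345 and 0.500 CPM in the deletion line, so that these groups overlapped. Tcstv1, its relative, went from 0.158, 0.310 and 0.208 CPM in WT to 3.42 and 1.14 CPM in KO a and b. The Hmga1 add-back had 1.26 and 1.35 CPM of Tcstv1 and the Hmga2 add-back 0.444 and 0.493 CPM. Again all KO-derived samples lay above WT, and the Hmga2 add-back was the lowest of these lines. With the full deletion Tcstv1 had 0.242, 0.432 and 0.682 CPM, against 0.569, 1.23 and 0.578 CPM in WT, and the groups overlapped.

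Gm5662 had 0.822, 2.09 and 1.74 CPM in WT a, b and c (26 to 42 counts). It had 21.1 and 9.501 CPM in KO a and b, 9.13 and 10.1 CPM in the Hmga1 add-back, and 4.74 and 7.82 CPM in the Hmga2 add-back. The 6 KO-derived samples did not overlap with WT. In the full-deletion experiment the direction was the opposite, with 4.32, 4.23 and 3.52 CPM in WT and 1.94, 2.12 and 2.04 CPM in the deletion line, without overlap. Gm2016, the more abundant copy, had 3.38, 7.29 and 10.96 CPM in WT and 26.3 and 21.1 CPM in KO a and b. The add-backs had 14.8 and 23.8 CPM of Gm2016 with Hmga1 and 8.50 and 16.9 CPM with Hmga2. Gm2016 overlapped between WT and the Hmga2 add-back, through WT c. In the full-deletion experiment it had 8.92, 12.0 and 8.29 CPM in WT and 5.38, 5.14 and 4.82 CPM in the deletion line, again without overlap. Summed, the 2 copies had 8.76 ± 4.28 CPM in WT (SD, n = 3) and 39.1 ± 11.9 CPM in KO (SD, n = 2), against 13.8 ± 2.26 and 7.14 ± 0.248 CPM in WT and full deletion (SD, n = 3 each).

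Tmem92 had 0.158, 0.0776 and 0.125 CPM in WT, or 5, 1 and 3 counts. It had 2.89 and 1.14 CPM in KO a and b, 1.87 and 0.300 CPM in the Hmga1 add-back and 0.7997 and 0.775 CPM in the Hmga2 add-back. It separated WT from the KO-derived lines as the Tcstv genes did, but the Hmga1 add-back samples differed from each other more than the Hmga2 add-back samples did. Tmem92 had no more than 8 counts in a sample of the full-deletion experiment, with 0 counts in WT b and in deletion sample c, which allow up to 0.184 and 0.136 CPM.

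Arg2 and Zfp352 were detected at a few counts only. Arg2 had 0.158, 0.155 and 0.0830 CPM in the WT samples and 0.673 and 0.228 CPM in KO a and b, the highest of these on 24 counts. The Hmga1 add-back had 0.287 and 0.600 CPM of Arg2 and the Hmga2 add-back 0.237 and 0.352 CPM. Each of the 6 KO-derived samples was above the WT samples, by a margin of few counts. In the other experiment Arg2 had 1, 0 and 1 counts in WT and 5, 2 and 5 in the full deletion, that is, 0.0344 CPM (0.00417 to 0.124) and 0.194 CPM (0.1005 to 0.340) over the pooled samples with 95% exact Poisson intervals, which cover counting error only. Its direction there was opposite to that of Gm2016 and Gm5662. Zfp352 had 6, 1 and 2 counts in WT, 14 and 1 in KO, 5 and 4 in the Hmga1 add-back and 8 and 0 in the Hmga2 add-back. Its pooled level was 0.131 CPM in WT (0.0600 to 0.249) and 0.307 CPM in KO (0.172 to 0.507), intervals that overlap. With 0, 0 and 2 counts in WT and 0, 3 and 1 in the full deletion, no difference of Zfp352 was detectable at this depth.

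**Figure D1:**
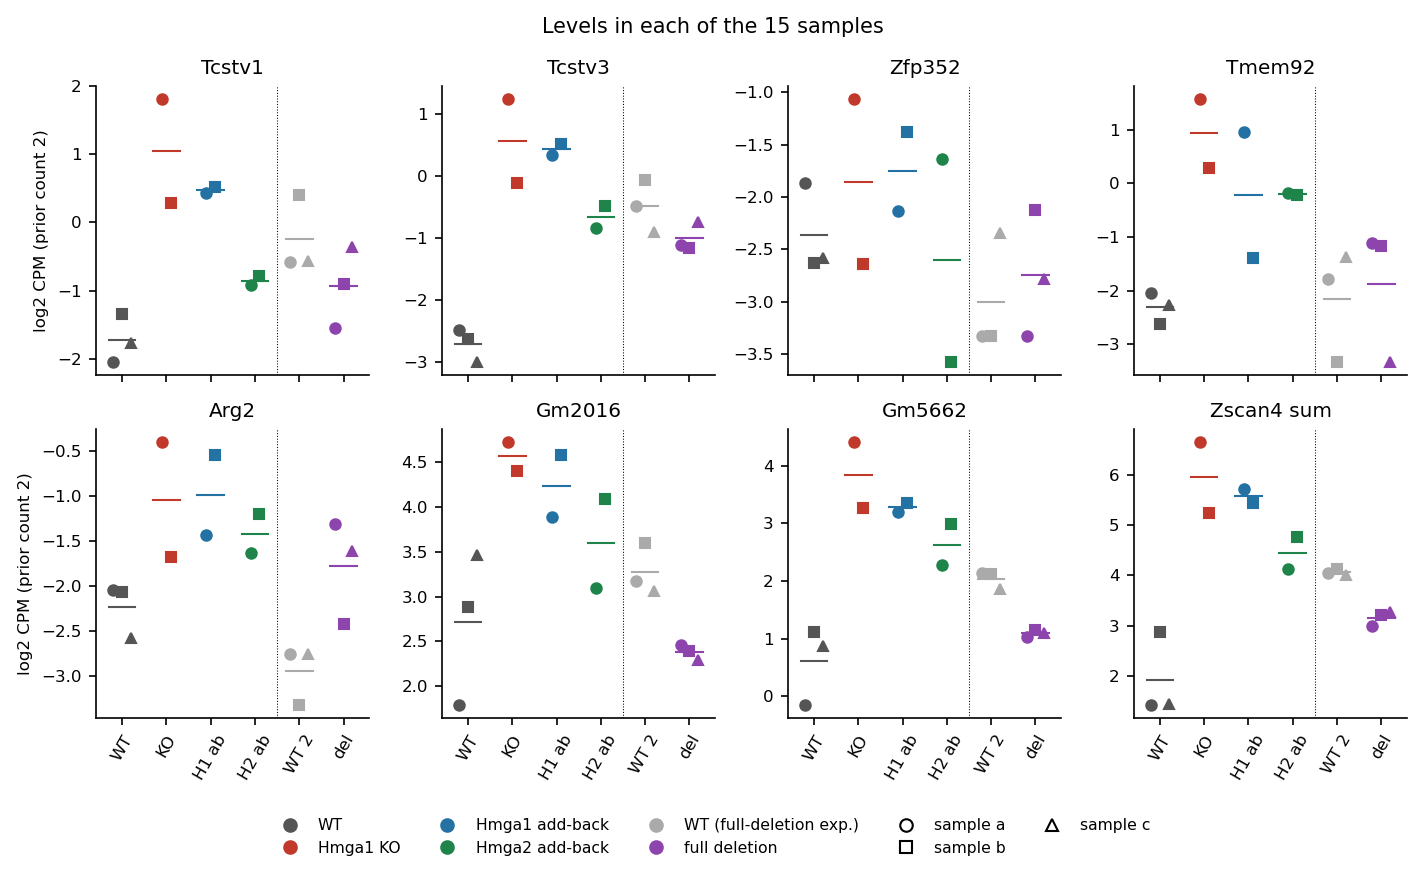
Level of each of the 7 genes and of the summed Zscan4 genes in each sample, as log2 CPM with a prior count of 2 on the vertical axis. Groups stand on the horizontal axis (KO, Hmga1 add-back as H1 ab, Hmga2 add-back as H2 ab, WT of the full-deletion experiment as WT 2, full deletion as del), marker shapes give the sample letter, short lines are group means, and the dotted line divides the 2 experiments, which were normalised separately. Tcstv1, Tcstv3, Tmem92, Arg2, Gm5662 and Zscan4 lie above WT in all 6 KO-derived samples, as did 5.15% of all genes tested. Gm2016, Gm5662 and Zscan4 lie below WT in all 3 samples of the full deletion, as did 24.6% of all genes tested there.

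Per length, Gm2016 was the most abundant member in every group, with 4.08 ± 2.14 RPKM in WT (SD, n = 3) and 13.4 ± 2.09 RPKM in KO (SD, n = 2). In KO it was followed by Gm5662 with 8.32 ± 4.47 RPKM, Tcstv1 with 2.70 ± 1.91, Tcstv3 with 1.77 ± 1.16, Tmem92 with 0.787 ± 0.484, Arg2 with 0.318 ± 0.222 and Zfp352 with 0.104 ± 0.0991 (SD, n = 2 each). No neighbours in this order differed beyond their SDs. In WT the order was the same for the first 3 genes, with 0.844 ± 0.357 RPKM of Gm5662 and 0.267 ± 0.0920 RPKM of Tcstv1 (SD, n = 3 each). The 4 others lay between 0.0469 and 0.0932 RPKM in WT.

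The quasi-likelihood test of edgeR was run on all genes whose counts averaged 10 or more, and a gene was called where its p, adjusted after Benjamini and Hochberg, was under 0.01 and its level differed by 2-fold or more. In the KO experiment, where the batch was a term of the model, 5 of the 7 members passed the filter on counts, and Zfp352 and Arg2 did not. Tcstv1, Tcstv3 and Tmem92, with at most 5 counts in any WT sample, passed it only through samples of the KO-derived lines. Tallies over the 5 tested members are therefore partly set by the filter and are not support for a difference. WT c was the only sample of batch c. Its batch term absorbs it, so the fitted fold changes of KO against WT rest on WT a and b. In KO against WT the fitted log2 fold change was 4.14 for Tcstv3 (standard error 0.69, adjusted p = 0.0731, edgeR), 4.06 for Tmem92 (standard error 0.70, adjusted p = 0.0744, edgeR) and 3.59 for Gm5662 (standard error 0.54, adjusted p = 0.0592, edgeR). For Tcstv1 it was 3.47 (standard error 0.65, adjusted p = 0.0940, edgeR) and for Gm2016 2.32 (standard error 0.33, adjusted p = 0.0536, edgeR). None of the 5 was called, where 0.0216% of all genes tested were. All 5 were higher at an unadjusted p under 0.05, as were 6.99% of the genes tested. The Wald test of DESeq2 called 2 of them, Gm2016 and Gm5662, and 0.546% of the genes. All samples of the KO-derived lines lay above all WT samples for 4 of the 5, the exception being Gm2016, and for 5.15% of all genes tested.

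The size of the difference was unequal in the 2 batches. Gm5662 was 25.7-fold higher in KO than in WT in batch a and 4.54-fold in batch b, and Tcstv1 21.6-fold and 3.67-fold. Gm2016 was 7.79-fold and 2.90-fold higher. The ratios of Tcstv3 were 24.0 (7.91 to 119) in batch a and 10.8 (1.57 to 464) in batch b, and those of Tmem92 18.3 (7.58 to 57.5) and 14.7 (2.26 to 619), with exact 95% counting intervals that are wide because WT b had 1 count of each gene. The summed Zscan4 genes were 37.3-fold higher in batch a and 5.19-fold in batch b. Thus every member tested was higher in both batches. The ratio was larger in batch a for each of them, but for Tcstv3 and Tmem92 the intervals of the 2 batches overlap. Without the sample KO a the log2 fold change was 2.53 for Gm5662 (adjusted p = 0.551, edgeR), 2.25 for Tcstv1 and 2.99 for Tcstv3 (adjusted p = 0.889 for both, edgeR) and 1.64 for Gm2016 (adjusted p = 0.466, edgeR). Tmem92 moved little, to 3.95 (adjusted p = 0.889, edgeR). Without a filter on low counts Arg2 had a log2 fold change of 1.66 (adjusted p = 0.550, edgeR) and Zfp352 of 0.86 (adjusted p = 0.809, edgeR). In bulk samples a smaller share of cells in the 2-cell-like state and less RNA per such cell cannot be told apart.

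In KO cells carrying the Hmga1 cDNA, no difference of the members from KO passed the test. Hmga1 itself had 184 and 123 CPM in add-back samples a and b, against 217 and 96.1 CPM in KO a and b. The counted RNA was thus above KO in batch b only and below all WT samples in both. By Western blot the paper reports Hmga1 protein of this add-back at an amount comparable to that of WT. The counts include the transcript of the KO allele and do not measure that protein. The log2 fold change against KO was -0.83 for Tcstv1, -0.36 for Tcstv3, -0.91 for Tmem92, -0.41 for Gm2016 and -0.72 for Gm5662, each with an adjusted p of 0.9999 in edgeR. None of the 5 was called by edgeR or by DESeq2, which called 0% and 0.0144% of all genes, and none was lower at an unadjusted p under 0.05, where 1.54% of the genes were. The batches disagreed. Gm5662 stood at 43.2% of the KO level in batch a and at 107% in batch b, Tcstv1 at 36.9% and 118%, Tcstv3 at 51.8% and 161%, and Gm2016 at 56.0% and 113%. Tmem92 was the exception with 64.6% and 26.3%. Without KO a the sign turned for Tcstv1 (0.33), Tcstv3 (0.70), Gm2016 (0.28) and Gm5662 (0.35).

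The 5 tested genes had lower levels in the Hmga2 add-back than in the KO in both batches, while Arg2, which was not tested, stood at 35.2% of KO in batch a but at 154% in batch b. Tcstv1 differed from KO by -2.33 (log2, adjusted p = 0.877, edgeR, with a standard error of 0.56), Tcstv3 by -1.58, Gm5662 by -1.37, Tmem92 by -1.33 and Gm2016 by -1.05, all with the same adjusted p in edgeR. Again none was called, where 0.00719% of the genes were called by edgeR and 0.0719% by DESeq2. All 5 were lower at an unadjusted p under 0.05, as were 2.47% of the genes. In batch a they stood at 13.0% (Tcstv1) to 32.3% (Gm2016) of the KO level and in batch b at 43.2% (Tcstv1) to 82.3% (Gm5662). The summed Zscan4 genes stood at 17.3% and 71.8%. Without KO a the difference was smaller, with -1.13 for Tcstv1, -0.50 for Tcstv3, -0.36 for Gm2016 and -0.32 for Gm5662, each with an adjusted p of 0.99999 in edgeR. The 2 add-backs were made from the same KO cells, and the difference between them was not tested here.

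In the full-deletion experiment 4 of the 7 members passed the filter, and the fitted changes were in the other direction. The log2 fold change against WT was -0.98 for Gm5662 (standard error 0.18, adjusted p = 0.0322, edgeR) and -0.93 for Gm2016 (standard error 0.18, adjusted p = 0.0337, edgeR). For Tcstv1 it was -0.73 (standard error 0.49, adjusted p = 0.302, edgeR) and for Tcstv3 -0.62 (standard error 0.40, adjusted p = 0.275, edgeR), and neither passed an unadjusted p of 0.05. None of the 4 was called, where 0.0687% of the genes were. Lower at an unadjusted p under 0.05 were 2 of the 4, Gm2016 and Gm5662, against 18.6% of all genes, and in 24.6% of all genes the deletion samples lay below all WT samples, as in these 2. DESeq2 called Gm5662 and 3.53% of the genes. Without WT b the values were -0.94 for Gm5662 (adjusted p = 0.00190, edgeR) and -0.75 for Gm2016 (adjusted p = 3.53e-04, edgeR), still under 2-fold. Scaling by the summed counts moved the median of all genes from 0.04 to 0.32, and Gm5662 to -0.69 and Gm2016 to -0.62. Without a filter Arg2 had 2.34 (adjusted p = 0.173, edgeR), Zfp352 0.78 (adjusted p = 0.738, edgeR) and Tmem92 0.44 (adjusted p = 0.807, edgeR). In these samples the 13 feeder fibroblast markers found summed to 7.54 to 14.7 CPM in WT and 19.7 to 20.6 CPM in the deletion line, with 6 or 7 markers at 0 in each sample. Of the 5 feeder markers tested, 3 were higher in the deletion line at an unadjusted p under 0.05. At that p 4843 of 13098 genes passed in either direction, with 18.6% of all genes lower. Of the feeder markers 0 were called by edgeR and DESeq2 called Mmp2 (1.28 in edgeR) and Pdgfrb (1.34 in edgeR), and their part in the differences was not tested.

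The effects of the 2 mutant lines were compared directly in a joint fit of the 15 samples, as the KO effect minus the full-deletion effect. The difference was 4.58 on the log2 scale for Gm5662 (standard error 0.58, adjusted p = 0.00670, edgeR) and 3.26 for Gm2016 (standard error 0.40, adjusted p = 0.00641, edgeR), and both were called, where 0.0951% of the genes were. The value was 4.76 for Tcstv3 (adjusted p = 0.0331, edgeR), 4.21 for Tcstv1 (adjusted p = 0.0771, edgeR) and 3.64 for Tmem92 (adjusted p = 0.249, edgeR), which were not called. All 5 had an unadjusted p under 0.05 with the higher effect in the KO, as did 9.85% of the genes. Tmem92 averaged 4 counts per sample in the full-deletion experiment and passed the filter of this fit only through the KO experiment. DESeq2 called 4 of the 5, all but Tmem92, and 0.797% of the genes. Gm2016 and Gm5662 summed had a difference of 3.65 (standard error 0.44, adjusted p = 0.00532, edgeR). The WT samples of the 2 experiments were not alike in these genes, with 1.55 ± 0.657 and 4.02 ± 0.439 CPM of Gm5662 and 0.0713 ± 0.0272 and 0.636 ± 0.213 CPM of Tcstv3 (SD, n = 3 each, normalised separately). Leaving out 1 of the 15 samples at a time ended both calls in 10 fits, and both held only without WT c, KO b or Hmga2 add-back a of the KO experiment or without WT b of the full-deletion experiment. Without WT b of the KO experiment Gm5662 alone was called. The smallest difference of Gm5662 was 3.51 without KO a (adjusted p = 0.0252, edgeR), and the highest adjusted p was 0.0704 without WT a (edgeR), for both genes. By limma none of the members was called in the 4 other comparisons and the same 2 genes in this one.

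**Figure D2:**
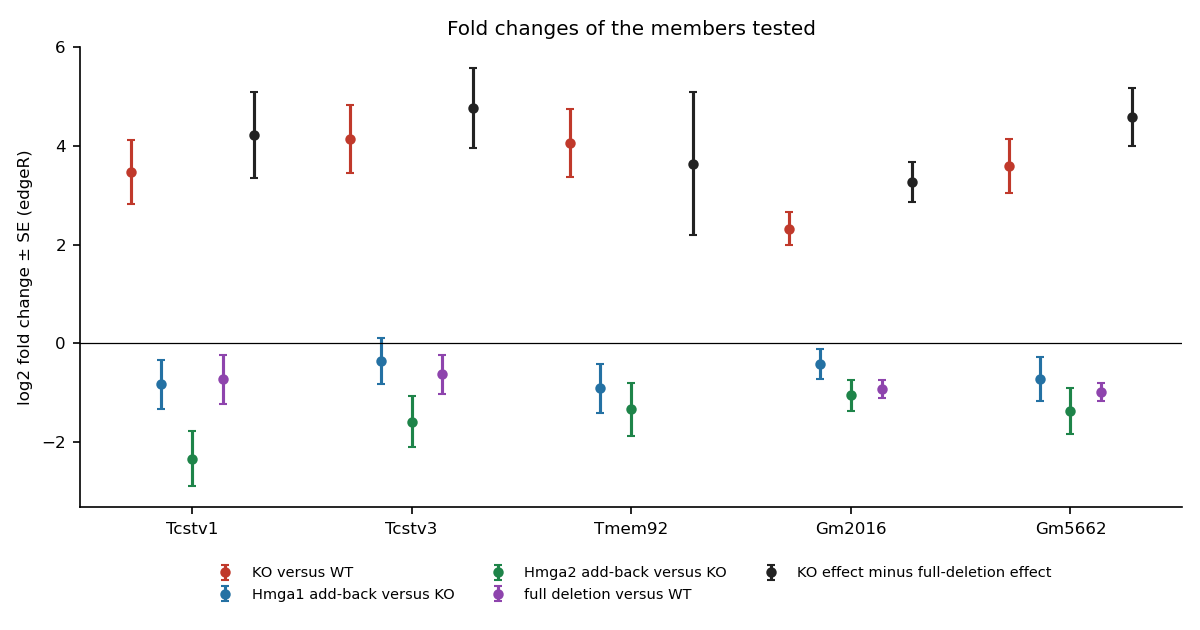
Log2 fold change with its standard error, from edgeR, for the 5 members that passed the filter on counts, in the 4 comparisons and in the difference between the KO effect and the full-deletion effect. The KO against WT lies between 2.32 and 4.14, the comparisons with the add-backs and the full deletion lie below 0, and Tmem92 was not tested in the full deletion.

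In WT the summed Zscan4 genes had 2.69, 7.29 and 2.70 CPM, and in KO a and b 100.3 and 37.9 CPM. They had 52.8 and 43.5 CPM in the Hmga1 add-back and 17.4 and 27.2 CPM in the Hmga2 add-back. In the other experiment they had 16.5, 17.4 and 16.1 CPM in WT and 7.98, 9.29 and 9.63 CPM in the full deletion. WT samples formed a cluster below all KO-derived samples, and WT lay above all samples of the full deletion. Correlations over all samples of an experiment therefore hold the difference between these clusters, and they are given as descriptions, on log2 CPM, beside the share of all genes tested that reach the same value.

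Over the 9 samples of the KO experiment Pearson's r with summed Zscan4 was 0.977 for Gm5662 (Spearman's rho 0.950), reached by 0.0647% of the genes, 0.972 for Tcstv3 (rho 0.933, 0.0719%) and 0.943 for Tcstv1 (rho 0.983, 0.151%). It was 0.861 for Arg2 (rho 0.833, 0.942%), 0.851 for Tmem92 (rho 0.817, 1.14%) and 0.833 for Gm2016 (rho 0.850, 1.47%). Zfp352 had an r of 0.285 (rho 0.333), which 30.8% of all genes reached. Hence 6 of the 7 members had an r of 0.833 or above over these samples, and Zfp352, with a few counts per sample, did not. These values hold the difference between WT and the KO-derived lines, for members chosen from these data. Leaving out WT a and WT c, the samples farthest from the median of Zscan4, r was 0.984 for Gm5662, 0.983 for Tcstv3, 0.940 for Tcstv1, 0.882 for Gm2016, 0.825 for Tmem92, 0.793 for Arg2 and 0.462 for Zfp352.

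Within the 6 samples of the KO-derived lines alone, r remained high for Tcstv3 (0.972, rho 0.943), Tcstv1 (0.968, rho 0.943) and Gm5662 (0.962, rho 0.829), values reached by 0.0719%, 0.101% and 0.129% of the genes. It was 0.781 for Gm2016 (rho 0.657, 2.78%), 0.679 for Arg2 (rho 0.600, 5.82%), 0.592 for Tmem92 (rho 0.600, 9.18%) and 0.442 for Zfp352 (rho 0.543, 16.0%). Without the 2 samples farthest from the median, KO a and Hmga2 add-back a, 4 samples were left. Then r was 0.902 for Tcstv1, 0.881 for Tcstv3 and 0.718 for Gm5662, but -0.07 for Gm2016, 0.04 for Arg2, 0.257 for Tmem92 and 0.807 for Zfp352. The 4 samples left spanned only 27.2 to 52.8 CPM of summed Zscan4. With so narrow a range and so few samples, a lower r cannot show on which samples a relation rests.

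In the full-deletion experiment r was 0.981 for Gm5662 (rho 0.886) and 0.927 for Gm2016 (rho 0.771) over 6 samples, values that 0.458% and 4.33% of the genes reached. Tcstv3 (0.750, rho 0.886) and Tcstv1 (0.718, rho 0.771) had values that 20.3% and 22.8% of the genes reached, since many genes differed between the 2 groups of 3. Arg2 ran against Zscan4 with an r of -0.89 (rho -0.94), and Tmem92 (-0.29, rho -0.83) and Zfp352 (-0.20, rho -0.23) had 0 to 8 counts in these samples. Without deletion sample a and WT b, r was 0.989 for Gm2016, 0.977 for Gm5662, 0.564 for Tcstv3, 0.205 for Tcstv1, 0.347 for Tmem92, -0.46 for Zfp352 and -0.76 for Arg2, over 4 samples. Gm5662 was thus the member whose r was 0.962 or above in each of the 3 sets of samples.

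**Figure D3:**
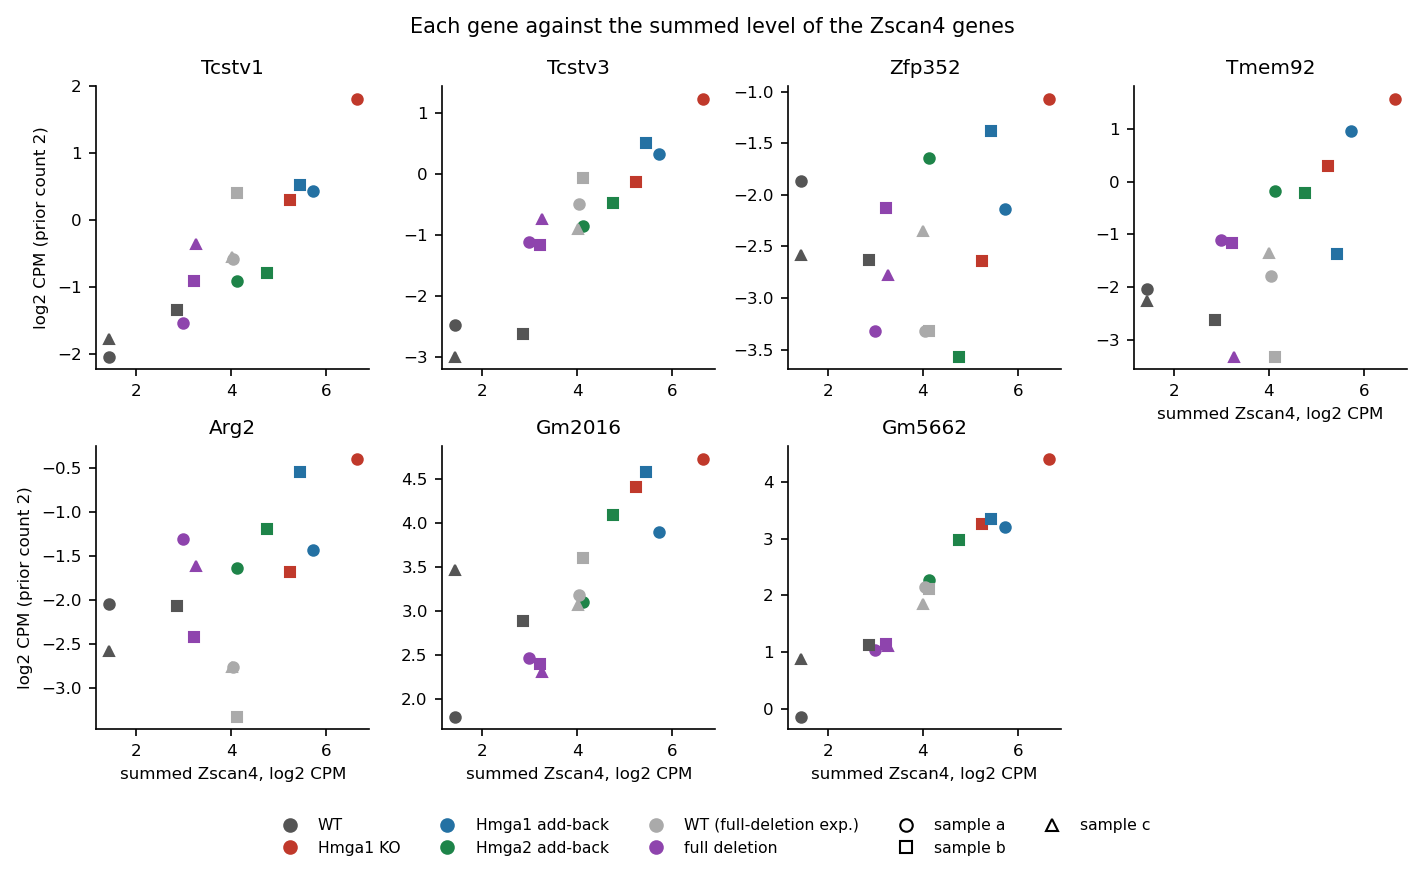
Each of the 7 genes (vertical axis, log2 CPM with a prior count of 2) against the summed Zscan4 genes (horizontal axis, log2 CPM), with 1 point per sample, coloured by group. Tcstv1, Tcstv3 and Gm5662 rise with Zscan4 over the 9 samples of the KO experiment (r of 0.943, 0.972 and 0.977), whereas the points of Zfp352 scatter (r of 0.285). The 2 experiments were normalised separately.

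**Figure D4:**
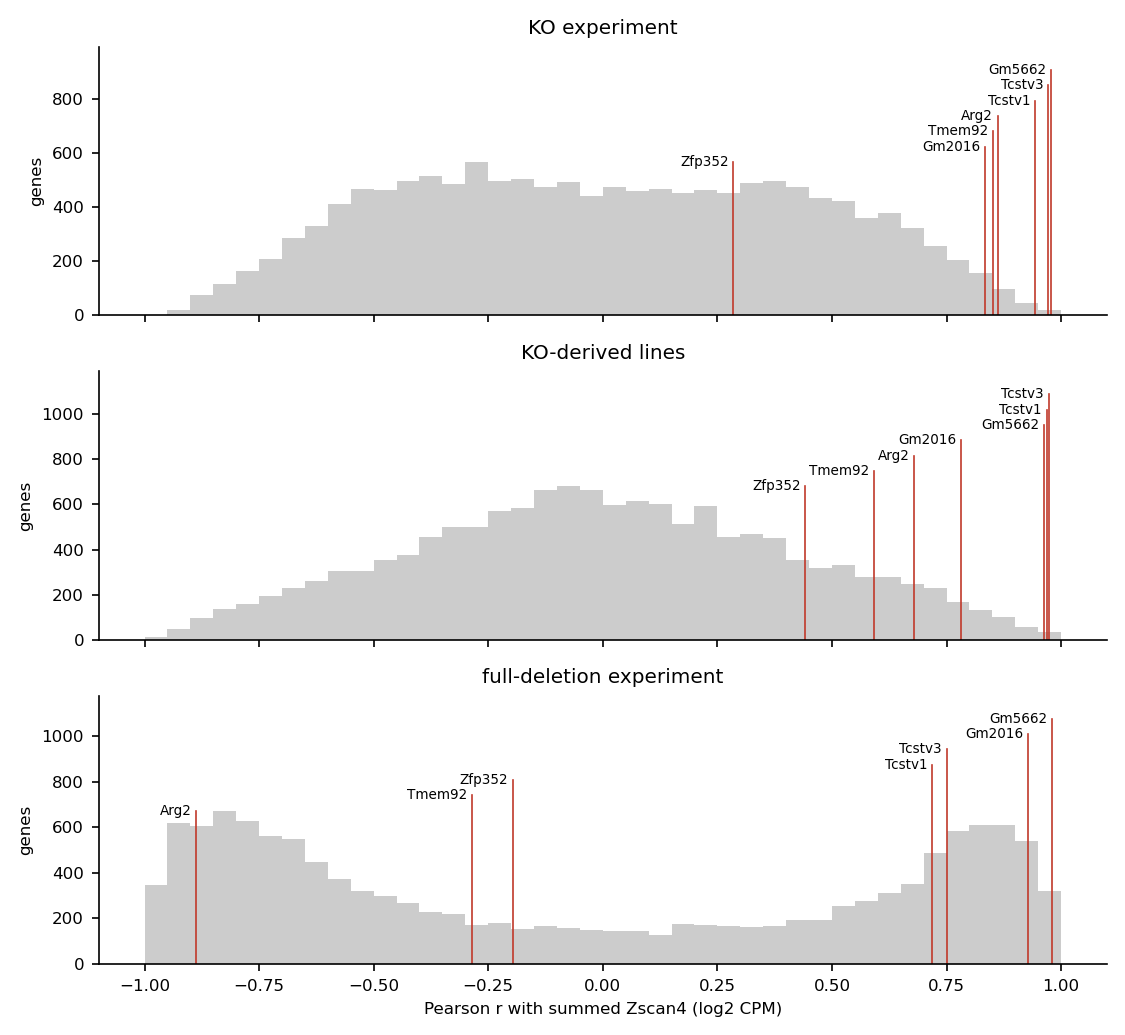
Number of genes (vertical axis) by their Pearson r with summed Zscan4 (horizontal axis, bins of 0.05), in the 9 samples of the KO experiment, in the 6 of its KO-derived lines and in the 6 of the full-deletion experiment, with red lines at the 7 members. In the KO experiment 6 members lie at 0.833 or above, and in the full-deletion experiment they spread from -0.89 for Arg2 to 0.981 for Gm5662.

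Counts of each gene per 100 Zscan4 counts give the proportion of their counts within a sample, free of scaling between samples. They are not corrected for exonic length or for reads placed at random, and they measure RNA, not transcription. Gm5662 had 17.3 to 28.8 counts per 100 in the 6 KO-derived samples and 21.2 to 26.1 in the full-deletion experiment, WT and deletion alike, and 30.6, 28.7 and 64.6 in WT a, b and c of the KO experiment. Tcstv3 had 2.21 to 3.10 in the KO-derived samples and 2.69 to 5.19 in the full-deletion experiment. In WT a, b and c of the KO experiment Tcstv3 had 3.53, 1.06 and 1.54. Over all 15 samples Tcstv1 had 1.81 to 7.69, Tmem92 and Arg2 0 to 5.88 and Zfp352 0 to 7.06, so these proportions were not constant. Gm2016 had 26.3 to 62.2 in the KO-derived samples against 125.9, 100 and 406 in their WT. Over the 6 samples of the full-deletion experiment it had 50 to 69.0. The proportion of Gm2016 was thus highest in WT c, where Zscan4 had 65 counts and Gm2016 264.

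By likeness to the mean of the tested members, the genes ranked by the smaller r of the 2 experiments among 13046 genes were led by Zscan4a (0.978 and 0.969 in the KO and full-deletion experiments) and Zscan4f (0.987 and 0.913). They were followed by Gm8300 (0.942 and 0.908), another copy related to Eif1a that shares 13.9% of the windows of Gm2016. Next were Syde2 (0.906 and 0.937), Usp17lb (0.966 and 0.901), which belongs to a family of deubiquitinating enzymes, and Myh6 (0.950 and 0.897), a heart myosin gene. Npm2, a histone chaperone of the oocyte (0.885 in both), and Tex19.1, a germ cell gene (0.879 and 0.928), completed the first 8. Their log2 fold changes in KO against WT ranged from 0.32 for Syde2 to 4.01 for Zscan4f, and all 8 were below 0 in both add-backs against KO and in the full deletion. These directions follow largely from the choice of the genes by r over the same samples, and they are not separate evidence.

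Other genes of the 2-cell stage were drawn from a list of 66, of which 52 were in the files and 29 were tested in the KO experiment. None was called in KO against WT by edgeR, and 19 of the 29 were higher at an unadjusted p under 0.05 and 0 lower. Of all genes tested 6.99% were higher at that p. Their median log2 fold change was 1.62, against -0.01 over all genes tested. The 6 called by DESeq2 were all higher, namely Gm2022, Gm4340, Usp17lc, Gm12794, Gm8300 and Hormad1, with fitted values of 1.89, 4.06, 3.35, 3.85, 3.22 and 1.09 in edgeR. DESeq2 called 0.546% of all genes. Gm8300 shares 13.8% of its windows with Gm2016 and 14.4% with Gm5662, so its counts are not fully separate from theirs. Against KO the median was -0.25 with Hmga1 and -0.96 with Hmga2 added back. At an unadjusted p under 0.05, 2 and 13 genes were lower, as were 1.54% and 2.47% of all genes tested. In the full deletion 21 were tested and 0 called by edgeR, with a median of -0.42 against 0.04 over all genes. At an unadjusted p under 0.05, 10 were lower and 3 higher, where 18.6% of all genes were lower. The 4 most abundant genes of the list had log2 fold changes in KO against WT of -0.14 for Eif1a, 0.03 for Cwc22, 0.34 for Rpl10l and 0.38 for Tcl1. In the difference between the KO effect and the full-deletion effect 0 of the 23 tested were called by edgeR, with a median of 1.26 against -0.04. An unadjusted p under 0.05 with the higher effect in the KO was found for 15, and for 9.85% of all genes. DESeq2 called 9, and 0.797% of all genes.

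The 6 Zscan4 genes had a median log2 fold change of 4.01 in KO against WT, -0.55 and -1.71 in the Hmga1 and Hmga2 add-backs against KO and -0.77 in the full deletion. Of them edgeR called 3 in the difference between the 2 mutant lines, Zscan4c, Zscan4e and Zscan4f, and 0 in the other comparisons. These 3 share 72.2%, 93.3% and 89.2% of their windows of 47 bases with other Zscan4 genes, so their counts cannot be fully told apart and the calls are not separate evidence. At an unadjusted p under 0.05 all 6 were higher in KO against WT, 0 and 6 lower in the Hmga1 and Hmga2 add-backs and 5 lower in the full deletion, and DESeq2 called 6, 0, 0 and 1. Over all genes tested these shares were 6.99%, 1.54%, 2.47% and 18.6%, and 0.546%, 0.0144%, 0.0719% and 3.53% by DESeq2. Another list held 9 genes linked to control of the 2-cell-like state, and the direction in which each of them acts was not examined. Of these, 8 were tested, and in KO against WT Dux, a homeobox gene, had a value of 1.08 (adjusted p = 0.554, edgeR), Dppa2 of -0.07 and Dppa4 of -0.02. The list also holds Zscan4c, counted above with its family, which was the 1 gene of the 8 at an unadjusted p under 0.05 and the 1 called by DESeq2 in KO against WT. In the full deletion Dppa2 had a value of -0.77 (adjusted p = 0.0202, edgeR), Tet1 of -0.67 (adjusted p = 0.0678, edgeR) and Tet2 of -1.005 (adjusted p = 0.0366, edgeR), and of the 7 tested 0 were called, 5 were lower at an unadjusted p under 0.05, Zscan4c among them, and DESeq2 called Tet2. The 26 genes known to repress the state, among them Ncl, Trim28, Rif1 and Zfp42, had medians of -0.01 in KO against WT and -0.25 in the full deletion, with 0 called by edgeR and 0 and 1 called by DESeq2. At an unadjusted p under 0.05, 1 was higher in KO against WT and 10 were lower in the full deletion, where 18.6% of all genes were lower and 4843 of 13098 genes passed in either direction. The 15 pluripotency genes had medians of 0.03 and -0.10, with 0 called by edgeR or DESeq2, and at an unadjusted p under 0.05 there were 2 higher in KO against WT and 2 higher and 2 lower in the full deletion. Of the 14 genes of arginine and polyamine metabolism, to which Arg2 belongs, 10 were tested in KO against WT, among them Odc1, Azin1, Slc7a1 and Srm. None was called by edgeR or DESeq2, 1 had an unadjusted p under 0.05, and the median was 0.03.

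Markers of other cell types were measured in the same samples. The 10 primitive endoderm markers, among them Gata4, Gata6 and Sox17, had a median log2 fold change of -2.08 in KO against WT, with 6 lower and 1 higher at an unadjusted p under 0.05 and 0 called by edgeR or DESeq2. At that p 1747 of 13912 genes passed in either direction in KO against WT, and 6.99% of all genes were higher. Their summed level was 343 to 515 CPM in WT, 145 and 347 CPM in KO a and b, 213 and 608 CPM in the Hmga1 add-back and 301 and 227 CPM in the Hmga2 add-back, with no marker at 0. Within the KO experiment it was lowest in KO a, where all 7 members were highest, and it was 102 to 134 CPM in the full-deletion experiment. Its part in the differences of the members was not tested. Of the 14 feeder fibroblast markers 13 were in the files, and they summed to 17.1 to 44.0 CPM in the 9 samples of the KO experiment, with 1 to 5 of them at 0 per sample. The 9 trophoblast markers summed to 19.2 to 32.4 CPM over all 15 samples, with Elf5 at 0 to 5 counts and Cdx2 at 7 to 18 counts in WT and 0 to 3 in the KO-derived lines. Medians of these lists in KO against WT were 0.55 for the 6 feeder markers tested and 0.35 for the 6 trophoblast markers tested, with 0 called by edgeR or DESeq2. At an unadjusted p under 0.05, 0 and 2 of them were higher, as were 6.99% of all genes tested, and 0 were lower.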

How the data were processed

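After removal of ribosomal RNA, strand-specific libraries were sequenced as single reads of 50 bases. The deposited values are raw counts per gene, made by the authors with QuasR and bowtie on mm9 after trimming of 3 bases, with at most 100 alignments per read and 1 kept at random, counted on the strand of UCSC known genes. The submitters' notes also name bcl2fastq 2.17. Counts were normalised with TMM and tested in edgeR 4.0.16 (R 4.3.3), with batch as a term in the KO experiment, and alternatives used DESeq2 1.42.0 and limma 3.58.1. The script was tested on simulated data. The members, gene lists and rules were chosen with earlier results of these data known. All members are named. Of each list the called genes are named, or else the 4 most abundant, and genes called by DESeq2 were named after their values were seen. Likeness is r with the mean of the standardised tested members.

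Letters are stated batches in the KO experiment, and deviations from the group means correlated by 0.154 to 0.457 between same-letter samples of WT and the other lines. In the full deletion they did not pair (0.06, 0.07 and -0.05). Positions and sequences are from NCBIM37 with GENCODE annotation, read with python 3.11.15 and biopython 1.88, and plots were drawn with matplotlib 3.10.9. The comparison of the 2 add-backs with each other and of the add-backs with WT was not analysed here.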

Additional observations from a re-analysis of the deposited data

Results flagged for a closer look

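For Gm2016 and Gm5662 the effects in the 2 mutant lines, each compared with its own WT, passed a test of their difference with all samples in the fit. The KO effect minus the full-deletion effect was 3.26 on the log2 scale for Gm2016 (adjusted p = 0.00641, edgeR) and 4.58 for Gm5662 (adjusted p = 0.00670, edgeR). Both genes were higher in KO than in WT in each batch, and lower in the full deletion in 3 of 3 samples than in any WT sample. The latter held for 24.6% of all genes tested in that experiment. As the 2 genes share most of their sequence, they are not separate evidence. Both calls ended in 10 of the 15 fits that left out 1 sample, with an adjusted p of up to 0.0704 (edgeR), and the genes were chosen from these data, so that the p-values are no independent support.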

How the results depend on the processing

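Of the alternative log2 fold changes of members, 393 kept their direction and side of the threshold, 23 lost and 8 gained the threshold and 5 changed sign. Members called in KO against WT rose from 0 to 1 without a filter on low counts (Gm2016) and to 2 with DESeq2, and in the full deletion from 0 to 1 with DESeq2. The 2 calls in the difference between the mutant lines became 4 with DESeq2, 1 when scaled by summed counts and 1 when the copies were summed before the fit, where they form 1 gene. Leaving out 1 sample each gave 0 to 2 calls there, and 10 of the 15 fits gave 0, with differences of 2.56 to 3.81 for Gm2016 and 3.51 to 5.31 for Gm5662 and an adjusted p of up to 0.0704 (edgeR) for both. In the other comparisons 0 were called without any 1 sample. Where this left 1 KO or add-back sample, it was assumed to vary like the other groups.

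In the Hmga1 add-back against KO, leaving out 1 sample each gave log2 fold changes of -1.51 to 0.33 for Tcstv1, -0.96 to 0.70 for Tcstv3 (also 0.13 without Hmga1 add-back a), -0.94 to 0.28 for Gm2016 and -1.43 to 0.35 for Gm5662. The cause was not tested. The median r of the 7 members with summed Zscan4 was 0.861 in the KO experiment, 0.948 with batch means subtracted and 0.812 to 0.944 without 1 sample each. Among the 6 samples of the other experiment it was 0.718, and 0.518 to 0.8003 without 1 sample each, where r ranged from -0.603 to 0.0968 for Zfp352, with 0.00949 without WT b, and from -0.661 to 0.0350 for Tmem92. Within the 6 KO-derived samples, a choice made after seeing the data, the median r was 0.781.

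Without the replicate block of the KO experiment 0 members were called in KO against WT, Gm2016 having a log2 fold change of 1.73 (adjusted p = 0.315, edgeR). In the joint fit without the replicate block 2 were called, Gm5662 and Tcstv3 in place of Gm2016. With a replicate block in the full deletion, where letters do not pair, 0 were called as before. The few counts of Arg2, Zfp352 and, in WT, of the Tcstv genes and Tmem92 limit their precision.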
